A study of Mus musculus with 13 samples.

Results

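Open chromatin that differed between experiment 1 and experiment 2 was followed in mouse E14 embryonic stem cells. A region was taken as experiment-only when the lists from 10000 and from 20000 cells of one experiment both held a peak there and neither list of the other experiment did. Overlapping peaks of the 4 lists were merged into 56878 regions outside chromosomes 8 and Y, and 4812 of these were experiment-only: 4578 belonged to experiment 2 and 234 to experiment 1. Another 11458 regions held a peak in all 4 lists, and 107870 regions were formed when all 8 lists of the series were merged over all chromosomes.

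All groups were E14 cells of 129/Ola background, an established line grown here in Glasgow medium with 15% fetal bovine serum and leukemia inhibitory factor (LIF), and no group carried a treatment or an engineered allele. The low-input protocol cut open chromatin with the transposase Tn5 and then collected poly(A) RNA on oligo(dT) beads from the same lysate, so each ATAC library has an mRNA library from the same cells. Experiment 1 gave 10000 and 20000 cells, experiment 2 gave 5000, 10000 and 20000 cells, and each cell number of an experiment is 1 library. The experiments were done on different days, so experiment and day cannot be told apart, and nothing states that the libraries of an experiment came from separate cultures: a p-value here measures the spread between libraries. The 5000-cell list of experiment 2 was outside the rule and served as a check, as did lists from Omni-ATAC, a separate ATAC protocol run with 5000, 10000 and 50000 cells.

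Tn5 inserts where DNA is not wrapped in nucleosomes, mainly at promoters and enhancers. Promoters in CpG islands stay open in most cell types, whereas distal open sites vary more with cell state. In serum and LIF, embryonic stem cells are held by LIF and BMP signals, and FGF signalling through ERK pushes them towards differentiation.

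The promoters below are the 250 bases before a RefSeq start (GRCm38.p6, the mm10 build), 5′ to 3′ along the gene. Capital letters mark the bases inside the experiment-only region, so that its extent can be read against the promoter. Capza2 (actin capping protein), Sdc4 (the heparan sulfate proteoglycan syndecan-4), Mia2 (an inner start of a gene for export from the endoplasmic reticulum) and Ier3 (an immediate early gene) held an experiment 2-only region. Amhr2 (the receptor for anti-Müllerian hormone) and Sgms1 (sphingomyelin synthase) held an experiment 1-only region.
Capza2, chr6:17636760-17637009, plus strand: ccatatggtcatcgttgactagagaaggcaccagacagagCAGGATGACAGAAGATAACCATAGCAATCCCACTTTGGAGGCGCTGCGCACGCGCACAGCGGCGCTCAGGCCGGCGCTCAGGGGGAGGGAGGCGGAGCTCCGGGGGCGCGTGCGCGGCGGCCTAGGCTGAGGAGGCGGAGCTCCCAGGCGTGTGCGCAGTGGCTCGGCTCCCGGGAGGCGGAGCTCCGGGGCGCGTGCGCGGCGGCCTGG
Sdc4, chr2:164443189-164443438, minus strand: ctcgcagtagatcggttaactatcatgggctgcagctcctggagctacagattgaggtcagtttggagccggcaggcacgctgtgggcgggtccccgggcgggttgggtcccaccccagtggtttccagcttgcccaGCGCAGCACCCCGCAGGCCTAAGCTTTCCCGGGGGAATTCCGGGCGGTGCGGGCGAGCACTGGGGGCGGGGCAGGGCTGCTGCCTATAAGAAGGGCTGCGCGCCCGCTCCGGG
Mia2, chr12:59131231-59131480, plus strand: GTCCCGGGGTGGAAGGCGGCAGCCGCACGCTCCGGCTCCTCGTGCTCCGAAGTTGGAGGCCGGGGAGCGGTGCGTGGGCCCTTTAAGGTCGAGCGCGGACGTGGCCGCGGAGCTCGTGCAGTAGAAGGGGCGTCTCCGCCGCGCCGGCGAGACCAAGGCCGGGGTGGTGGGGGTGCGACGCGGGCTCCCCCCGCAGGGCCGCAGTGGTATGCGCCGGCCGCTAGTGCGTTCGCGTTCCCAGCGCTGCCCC
Ier3, chr17:35821463-35821712, plus strand: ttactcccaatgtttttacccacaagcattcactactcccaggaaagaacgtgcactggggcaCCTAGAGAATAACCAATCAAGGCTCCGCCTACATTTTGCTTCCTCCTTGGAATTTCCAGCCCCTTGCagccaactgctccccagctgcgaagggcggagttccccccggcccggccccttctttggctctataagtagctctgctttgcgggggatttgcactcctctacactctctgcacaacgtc
Amhr2, chr15:102445117-102445366, plus strand: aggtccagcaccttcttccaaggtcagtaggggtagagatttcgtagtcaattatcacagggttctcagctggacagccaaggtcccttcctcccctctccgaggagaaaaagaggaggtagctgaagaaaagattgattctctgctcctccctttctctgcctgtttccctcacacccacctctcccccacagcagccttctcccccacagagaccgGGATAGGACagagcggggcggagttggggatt
Sgms1, chr19:32388513-32388762, minus strand: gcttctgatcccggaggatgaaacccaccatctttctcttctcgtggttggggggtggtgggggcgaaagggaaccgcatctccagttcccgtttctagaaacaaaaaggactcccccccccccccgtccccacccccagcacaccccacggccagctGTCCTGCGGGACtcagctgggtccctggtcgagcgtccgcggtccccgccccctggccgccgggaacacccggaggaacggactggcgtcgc

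The capitals show the extent of the regions in windows picked after their values were seen, mostly wide ones for experiment 2. In these windows the experiment 2-only region covered 210 of 250 bases at Capza2, 113 at Sdc4, 67 at Ier3 and all 250 at the inner Mia2 start, which holds 36 CpG pairs and is 75.2% G and C. The experiment 1-only regions covered 9 bases at Amhr2 and 12 at Sgms1. At Sdc4 the letters of the SP motif begin 51 bases before the start and lie wholly inside the capitals. At Ier3 a CCAAT box begins 175 bases before the start, also inside the capitals, and another 244 bases before it, outside them. At Sgms1 the SP letters begin 48 bases before the start, outside the capitals.

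The numbers of experiment-only regions followed the lengths of the lists. Experiment 1 gave 17843 peaks from 10000 cells and 25583 from 20000 cells outside chromosomes 8 and Y, against 27768 and 46183 in experiment 2. The longest list alone, 20000 cells of experiment 2, held 19356 regions that no other list had. Regions with 1 list from each experiment numbered 4350, of which 2828 were shared by the 20000-cell lists and 164 by the 10000-cell lists. The files give no read depth for these lists and no height for a peak, so depth and a difference in accessibility cannot be told apart. With lists of equal length, made by keeping only the 18877 widest peaks of each (the number in the shortest list), 1339 regions were experiment 2-only and 842 experiment 1-only. This removed peaks narrower than 111 bp from the longest list and only peaks of 9 bp from the other two longer lists.

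**Figure D1:**
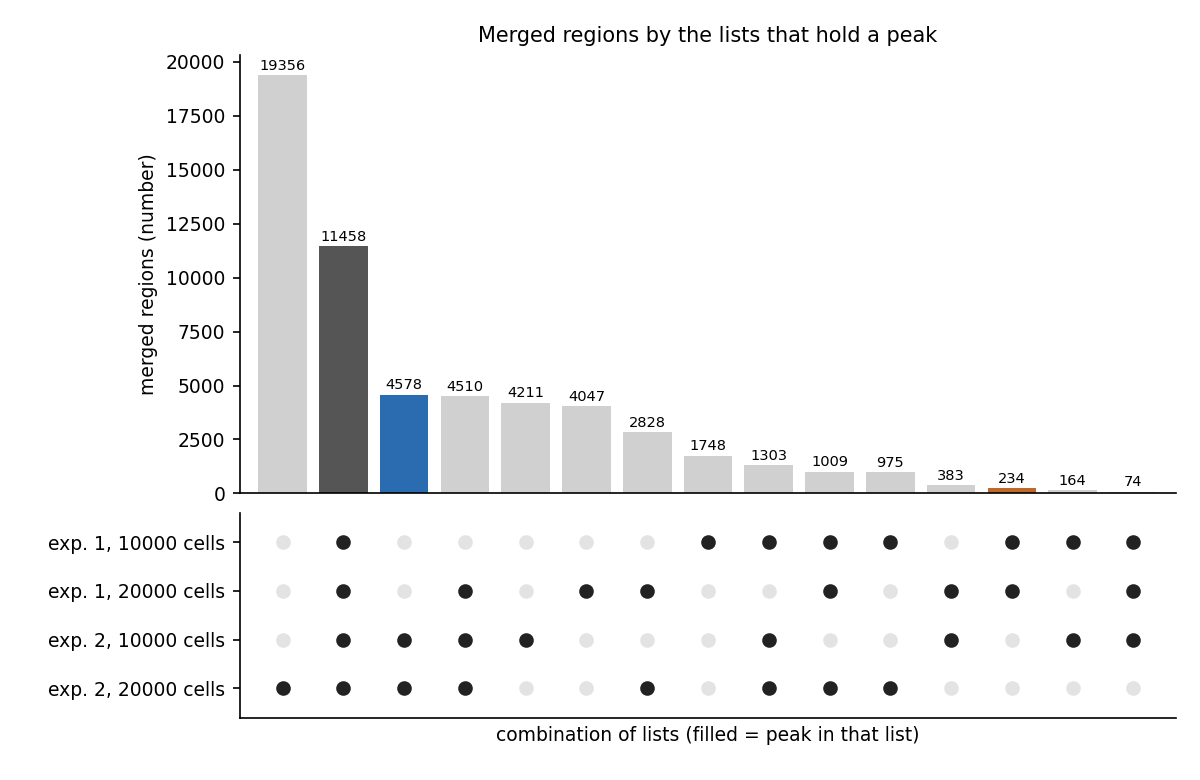
Bars give the number of merged regions (outside chromosomes 8 and Y) for each combination of the 4 lists, marked by filled dots. The 4578 experiment 2-only regions (blue) are the third most frequent combination, and the 234 experiment 1-only regions (orange) are among the 3 rarest.

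Most experiment-only regions were short, as were other regions of 2 lists. The median merged width was 11 bp for experiment 1-only regions (quartiles 9 and 23.5 bp) and 83 bp for experiment 2-only regions (16 and 145 bp), against 31 bp for regions with 1 list of each experiment and 272 bp for regions of all 4 lists. The shortest interval in any list was 9 bp. In the list where a region was narrower, the peak was 9 bp in 208 of 234 experiment 1-only regions (88.9%) and in 2837 of 4578 experiment 2-only regions (62.0%), with 76.4% in regions of 1 list of each experiment. Both peaks reached 100 bp in 5 experiment 1-only regions and in 374 experiment 2-only regions.

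Regions just outside the rule missed a peak in 1 list of the other experiment. In 4510 regions only the 10000-cell list of experiment 1 lacked a peak, and the 20000-cell peak of experiment 1 there had a median of 14 bp. In 1009 regions only the 10000-cell list of experiment 2 lacked a peak, and the 20000-cell peak of experiment 2 there had a median of 90 bp. Where instead only the 20000-cell list of the other experiment lacked a peak, the 10000-cell peak there had a median of 9 bp in both directions, over 1303 regions with a peak of experiment 1 and 74 with one of experiment 2. For experiment 1-only regions the nearest peak of experiment 2 lay a median of 784 bp away, and within 500 bp in 108 (46.2%). For experiment 2-only regions the nearest peak of experiment 1 lay a median of 9677 bp away, and within 500 bp in 885 (19.3%).

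By location, similar shares of both classes lay at a transcription start site (TSS, the 5′ end of a gene in the count table). A TSS lay within 1000 bp of 1243 experiment 2-only regions (27.2%, 95% exact interval 25.9% to 28.5%) and of 56 experiment 1-only regions (23.9%, 18.6% to 29.9%). Regions with 1 list of each experiment had 25.3% (24.001% to 26.6%), near both, so the low share was not particular to experiment-only regions. Among regions of all 4 lists it was 46.2%. Intervals cover counting error over regions alone. Gene bodies held 35.1% of experiment 2-only regions and 22.2% of experiment 1-only regions, and intergenic sequence held 37.7% and 53.8%. Away from a TSS, the median distance to the nearest one was 25793 bp for experiment 2-only and 22335 bp for experiment 1-only regions. More than 50 kb separated 22.4% and 24.4% of the regions from any TSS.

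The 5000-cell list of experiment 2, which the rule did not use, held a peak in 917 of 4578 experiment 2-only regions (20.0%, 18.9% to 21.2%) and in 26 of 234 experiment 1-only regions (11.1%, 7.39% to 15.9%). Regions seen in 1 list of each experiment were found there in 15.1% (14.01% to 16.2%), and regions of all 4 lists in 79.8%. For experiment 2-only regions the share was higher for wider peaks, from 14.9% where the narrower peak was 9 bp to 39.8% (34.8% to 45.0%) where both peaks reached 100 bp. For regions of 1 list per experiment the same classes gave 13.3% and 22.8% (16.0% to 30.8%). The intervals of experiment 2-only regions and of this comparison class overlapped in the classes under 100 bp and did not at 100 bp or more. Over all widths they did not overlap either. This is not a test, since regions are not replicates. Experiment 2-only regions also hold both lists of the experiment that gave the 5000-cell library, and the comparison class holds 1. Of the 26 experiment 1-only regions with a 5000-cell peak, 25 had a narrower peak of 9 bp, and 0 of the 5 regions with both peaks of at least 100 bp were among them. The 5000-cell list is short (17240 peaks outside chromosomes 8 and Y), and 1 library cannot give a spread. The order turned when 1 experiment 2 list was left out of the rule: 7.34% of experiment 2-only against 12.2% of experiment 1-only regions without the 10000-cell list, and 11.5% against 25.3% without the 20000-cell list. These rules take in other regions. Without the 10000-cell list, the 19356 regions of the 20000-cell list alone (4.37% with a 5000-cell peak) become experiment 2-only. Without the 20000-cell list, the 4211 regions of the 10000-cell list alone (4.13%) become experiment 2-only. The 1009 regions that lacked a peak only in that 10000-cell list (29.9%) then become experiment 1-only, although the 20000-cell list held them.

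**Figure D2:**
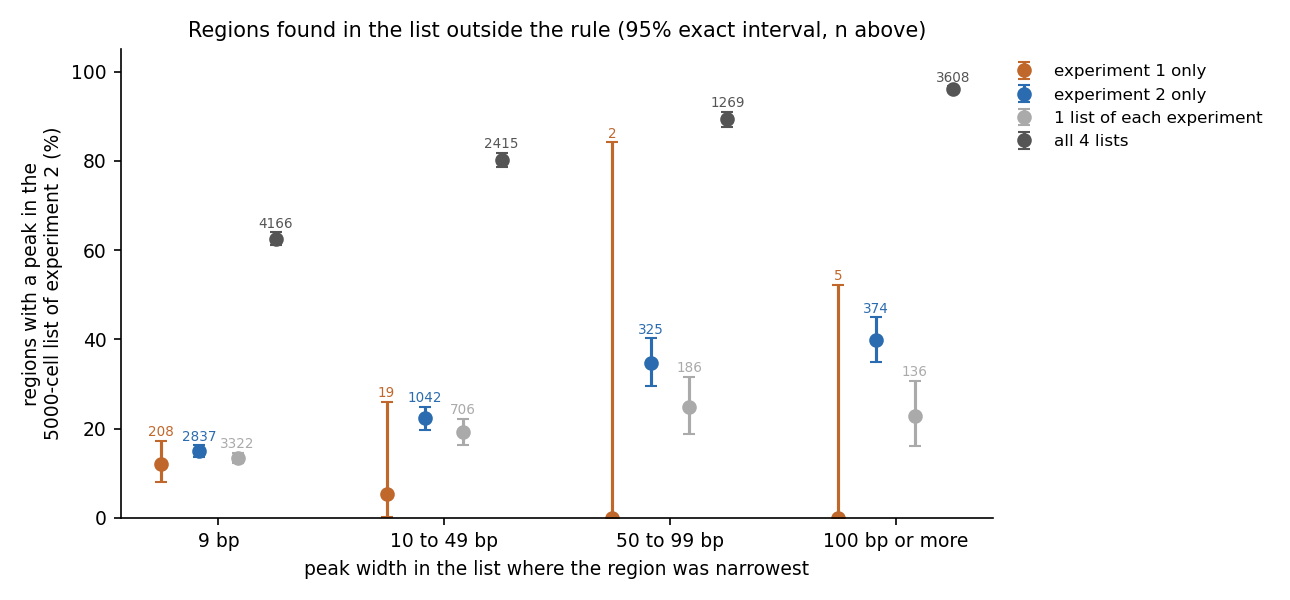
Points give the percentage of regions with a peak in the 5000-cell list of experiment 2, by the peak width in the list where the region was narrowest (for regions of 1 list per experiment and of all 4 lists likewise), with 95% exact binomial intervals and the number of regions above. Experiment 2-only regions stand at 14.9% at 9 bp and at 39.8% at 100 bp or more, and experiment 1-only regions rest on 19, 2 and 5 regions above 9 bp.

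The longest list, Omni-ATAC from 50000 cells (95457 peaks), held most regions of both classes. It had a peak in 93.6% of experiment 2-only regions and in 87.6% of experiment 1-only regions (82.7% to 91.5%). The Omni-ATAC list from 10000 cells had one in 38.7% and 24.4%. A region absent from both lists of an experiment was thus in most cases present in the longest list of the same cell line.

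The widest experiment 2-only regions lay at genes of varied function. Among the 10 with the widest narrower peak, Lamtor3 (a Ragulator subunit that links nutrient signals to mTORC1) and Capza2 had the region on the TSS. At Lamtor3 the peaks were 320 bp from 10000 cells and 573 bp from 20000 cells of experiment 2, and the nearest experiment 1 peak was 20032 bp away. At Capza2 they were 399 and 304 bp. Capza2 mRNA stood at 31.5 and 24.5 CPM (counts scaled to a library total of 1000000) in the 10000-cell and 20000-cell libraries of experiment 1 and at 36.4 and 31.9 CPM in those of experiment 2, and the change did not pass the test (log2 fold change 0.29 ± 0.18 SE, adjusted p = 0.326). Others lay inside Rere (a nuclear receptor corepressor), Tiam1 (an activator of Rac), Nhsl1 and Mia2, or near Bach2 (a transcriptional repressor), Mir6239 and Fat2 (an atypical cadherin). Of these 10 regions, 4 had a peak in the 5000-cell list (at Tiam1, Bach2, Slc2a3 and Nhsl1) and 10 in the 50000-cell Omni-ATAC list.

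Slc2a3, a high-affinity glucose transporter, was the only nearest gene of the 8 tested among these 10 whose mRNA was called. Of all tested genes outside chromosomes 8 and Y, 4.27% were higher and 7.09% lower in experiment 2. Its region (chr6:122770298-122770792, intergenic, 27553 bp from the TSS) had peaks of 276 and 424 bp in experiment 2. Slc2a3 mRNA was 138 and 149 CPM in experiment 1 and 192 and 199 CPM in experiment 2, so the groups did not overlap (log2 fold change 0.45 ± 0.12 SE, adjusted p = 0.0152). The 5000-cell library of experiment 2, outside the fit, stood at 149.7 CPM, beside the higher experiment 1 library at 149.3 CPM. The call was lost without the 10000-cell library of experiment 1 or the 20000-cell library of experiment 2.

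The widest experiment 1-only regions were all away from a TSS. The 10 lay nearest Lmtk2, Csnk1e (casein kinase 1 epsilon), 1700123O21Rik, Tulp4, Dpp4 (a cell-surface peptidase), Dennd3 (a Rab activator), 2610028E06Rik, Hmx1, Mpp7 and Gsdmd (a pore-forming protein of pyroptosis). The first, at chr5:144084400-144084664, had peaks of 171 and 254 bp and was 15772 bp from the TSS of Lmtk2. Of the 10, 1 had a peak in the 5000-cell list (Gsdmd) and 10 in the 50000-cell Omni-ATAC list. Dennd3 mRNA was 48.2 and 37.9 CPM in experiment 1 and 15.3 and 14.3 CPM in experiment 2, with 15.1 CPM in the 5000-cell library, and fell (log2 fold change -1.54 ± 0.18 SE, adjusted p = 2.09e-06). Dpp4 fell from 9.91 and 8.83 CPM to 5.29 and 3.13 CPM (log2 fold change -1.16 ± 0.33 SE, adjusted p = 0.0188), a call lost with DESeq2 and without the 20000-cell library of experiment 2. The other 6 tested of the 8 did not pass, where 4.27% of all tested genes were higher and 7.09% lower.

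The mRNA libraries gave a readout of the same cells that the rule did not use. Their totals ran from 13727122 to 20426252 counts. The E14 label was matched by Pou5f1, Sox2, Nanog, Klf4, Esrrb and Zfp42, which summed to 1009 to 1244 CPM in the 5 libraries. A set of 7 fibroblast markers summed to 31.4 and 34.9 CPM in experiment 1 and to 7.54 to 10.0 CPM in experiment 2, with Col3a1 and Lum at 0 in every library. Nearly all of that sum was Thy1, a cell surface glycoprotein, at 29.2 and 33.9 CPM against 6.77, 7.05 and 9.78 CPM, while Col1a1 stood at 0.119 to 1.89 CPM and no other of the 7 passed the count filter. A set of 4 primitive endoderm markers summed to 5.61 and 5.89 CPM against 1.17 to 1.85 CPM, and 3 neural markers to 4.23 and 5.62 CPM against 11.1 to 14.4 CPM, where Pax6 alone of the neural genes was called (0.146 and 0 CPM against 6.96, 3.52 and 5.55 CPM). These sums moved with the experiment, and their part in the results was not tested. In such bulk libraries fewer cells of a type and less RNA per cell cannot be told apart.

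Genes with an experiment 2-only region at the TSS showed mRNA calls at about the rate of all genes. Outside chromosomes 8 and Y, 11825 genes were tested, and the test called 4.27% higher and 7.09% lower in experiment 2 at an adjusted p under 0.05 (edgeR's quasi-likelihood test, Benjamini-Hochberg adjustment). Of 1344 genes with an experiment 2-only region within 1000 bp of the TSS, 1066 passed the count filter, 57 were higher (5.35%) and 64 lower (6.004%), and the median log2 fold change was 0.01 against -0.02 for all genes. Of the 1344, 760 had no experiment 1 peak within 1000 bp of the TSS at all, and among the 572 tested of these 36 were higher (6.29%) and 41 lower (7.17%). A 5000-cell peak lay within 1000 bp of the TSS in 228 of these 760 genes (30.0%), and a 50000-cell Omni-ATAC peak in 753. Genes with a region of all 4 lists and none of the experiment-only kind had 4.12% higher and 5.74% lower.

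The 64 genes with an experiment 1-only region at the TSS gave 55 tested, of which 4 were higher (7.27%, against 4.27% of all genes) and 6 lower (10.9%, against 7.09%). In 9 of the 64 no experiment 2 peak lay within 1000 bp of the TSS, and 3 of the 8 tested among these were lower (37.5%): Amhr2, Fsip1 (a sperm fibrous sheath protein) and Slc5a11 (an inositol transporter). Fsip1 stood at 3.93 and 0.669 CPM in experiment 1, and its call was lost with DESeq2 (adjusted p = 0.0798), with cell number as a block (adjusted p = 0.0872) and without 3 of the 4 libraries. The other 6 were 1700007L15Rik, Mylpf, Pias4, Plppr4, Thoc2l and Zfp148. All 9 had a peak at the TSS in the 50000-cell Omni-ATAC list.

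**Figure D3:**
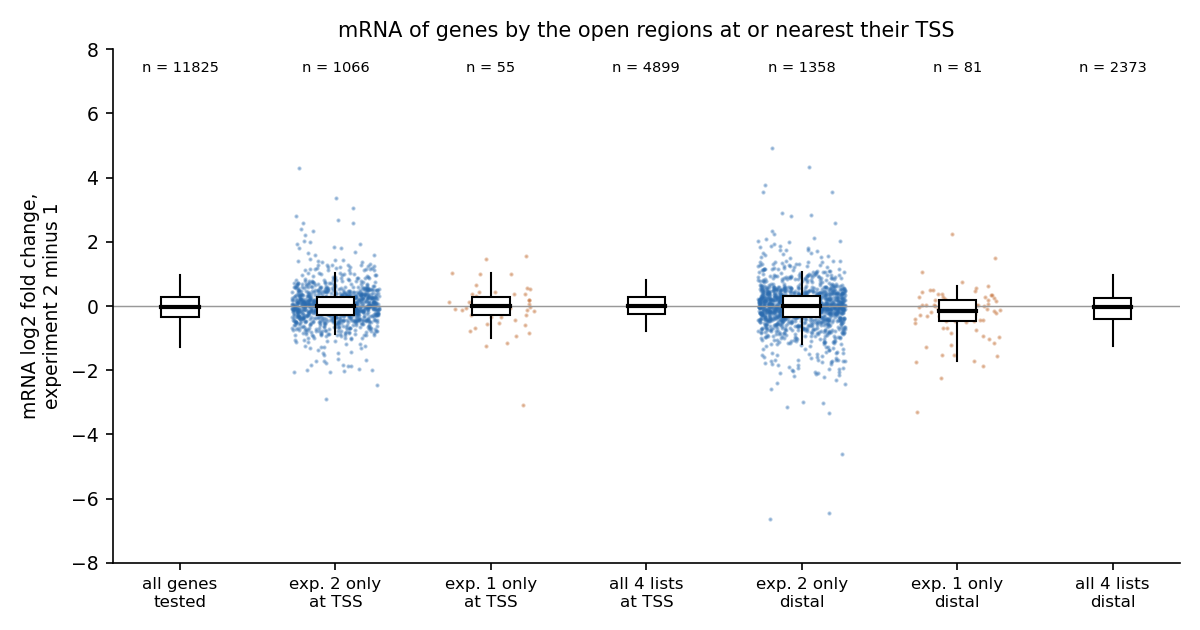
mRNA log2 fold change (experiment 2 minus experiment 1) for tested genes by the open regions at the TSS or distal to it within 50 kb. Boxes are quartiles with the median, lines run from the 5th to the 95th percentile, and dots are single genes of the experiment-only classes. The medians lie between -0.05 and 0.01 except for genes nearest a distal experiment 1-only region, at -0.17.

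Genes nearest a distal region were counted by class, beside 4.27% higher and 7.09% lower over all genes. Of 1358 tested genes nearest a distal experiment 2-only region within 50 kb, 76 were higher (5.60%) and 100 lower (7.36%). Of 81 tested genes nearest a distal experiment 1-only region, 3 were higher (3.70%) and 13 lower (16.0%), with a median log2 fold change of -0.17. Genes nearest a distal region of all 4 lists had 5.10% higher and 9.44% lower, and the difference between classes was not tested. Leaving out 1 library gave 7 to 12 lower genes in the experiment 1-only class, with 7 of 85 without the 20000-cell library of experiment 2, and 1 to 3 higher. In the experiment 2-only class 50 were higher and 64 lower without the 10000-cell library of experiment 1, 51 and 47 without the 10000-cell library of experiment 2, and 43 and 60 without its 20000-cell library. Without chromosomes 14 and 15 the experiment 1-only class had 11 lower of 71 tested (15.5%). The 13 lower genes, listed after their values were seen, were Abat, Adprh, Dennd3, Dpp4, H2-K1, Hal, Hopx, Pigyl, Pim3, Pla1a, Ramp2, Rpl10l and Ttc39c, and the 3 higher were Actn1, Gdf3 and Gjc1. Of these genes Ramp2, Rpl10l, Ttc39c and Gjc1 also had an experiment 2-only region within 1000 bp of the TSS.

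Among the 13, H2-K1 (a class I histocompatibility heavy chain) stood at 43.9 and 40.2 CPM in experiment 1 and at 13.8 and 14.6 CPM in experiment 2, with 16.8 CPM in the 5000-cell library. Hopx (a small homeodomain protein) stood at 80.3 and 60.1 CPM against 30.1 and 30.8 CPM, with 33.3 CPM in the 5000-cell library. Both had values that did not overlap between experiments (H2-K1 log2 fold change -1.56 ± 0.18 SE, adjusted p = 1.08e-06). Gdf3, a TGF-beta family ligand of the pluripotent state, went the other way, from 60.0 and 57.8 CPM to 113.8 and 129 CPM (log2 fold change 1.05 ± 0.13 SE, adjusted p = 5.55e-06). The experiment 1-only regions of H2-K1, Hopx and Gdf3 held 9 bp peaks in both lists, 7912, 5636 and 7566 bp from the TSS. Gdf3 also had an experiment 2-only region 7589 bp away.

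By the rule for naming, the 10 experiment 2-only promoters with the largest called mRNA change were Megf11, Sdc4, Psmb9, Ttc39c, Sct, Bhlhe40, Nedd1, Hps6, Gpr4 and Msc. Of these 10 genes 7 fell and 3 rose in experiment 2. Sdc4 had a peak of 19 bp from 10000 cells and of 137 bp from 20000 cells of experiment 2, a 9 bp peak in the 5000-cell list and none in experiment 1. Sdc4 mRNA was 10.6 and 9.84 CPM in experiment 1 and 2.52 and 2.40 CPM in experiment 2, with 1.49 CPM in the 5000-cell library. The values do not overlap, and the gene fell while its promoter was listed as open in experiment 2 alone (log2 fold change -2.05 ± 0.33 SE, adjusted p = 0.000125).

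Megf11 (a cell-surface protein with EGF repeats) fell the most of the 10, from 10.9 and 10.5 CPM to 1.29 and 2.55 CPM (log2 fold change -2.46 ± 0.36 SE, adjusted p = 3.74e-05), with promoter peaks of 9 and 11 bp in experiment 2. Gpr4, a proton-sensing receptor, fell from 14.6 and 15.7 CPM to 5.80 and 6.51 CPM and had peaks of 14 and 67 bp. Psmb9, an immunoproteasome subunit, fell from 11.5 and 11.04 CPM to 1.42 and 4.16 CPM. Its TSS also had peaks in both experiment 1 lists, so the promoter as a whole was listed as open in both experiments. Sct (secretin), Ttc39c and Hps6 (a subunit needed for lysosome-related organelles) also fell.

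The 3 that rose were Bhlhe40, Nedd1 and Msc. Bhlhe40, a basic helix-loop-helix repressor, stood at 2.55 and 2.54 CPM in experiment 1 and at 7.16 and 8.18 CPM in experiment 2, with 9.66 CPM in the 5000-cell library (log2 fold change 1.59 ± 0.36 SE, adjusted p = 0.0040). Its promoter had peaks of 15 and 31 bp in experiment 2. Nedd1, which anchors the gamma-tubulin ring complex, had peaks of 9 and 396 bp. Nedd1 mRNA was 1.68 and 6.09 CPM against 11.03 and 9.35 CPM, with 3.76 CPM in the 5000-cell library, inside the experiment 1 range, and its call was lost with DESeq2 and without 3 of the 4 libraries. Msc (musculin, a basic helix-loop-helix factor) stood at 3.13 and 4.15 CPM against 8.64 and 9.11 CPM, and 1 experiment 1 list had a peak at its TSS.

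For experiment 1-only promoters the same rule gave 9 genes: Fam20c, Ndrg1, Sgms1, Rab28, Slc5a11, Stmn1, Amhr2, Tmem41a and Map1lc3a. Amhr2 had a 9 bp peak in each experiment 1 list, 24 bp before the TSS, and none in the 3 lists of experiment 2. Amhr2 mRNA was 76.3 and 59.7 CPM in experiment 1 and 38.9 and 51.1 CPM in experiment 2, with 41.7 CPM in the 5000-cell library, and fell (log2 fold change -0.59 ± 0.16 SE, adjusted p = 0.0146). Slc5a11 had peaks of 15 and 9 bp in experiment 1 alone and fell from 21.1 and 18.2 CPM to 11.6 and 10.3 CPM (log2 fold change -0.84 ± 0.22 SE, adjusted p = 0.0104).

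The other 7 had peaks of experiment 2 elsewhere within 1000 bp of the TSS. Fam20c, a kinase of secreted proteins, fell from 10.6 and 6.56 CPM to 3.55 and 4.16 CPM, and its TSS had 3 peaks from 10000 cells and 1 from 20000 cells of experiment 2. Ndrg1, a stress-induced gene, rose from 6.99 and 6.83 CPM to 15.1 and 12.9 CPM, and Sgms1, Rab28 (a small GTPase) and Stmn1 (the microtubule destabiliser stathmin) rose as well. Ndrg1 and Sgms1 also had an experiment 2-only region near the TSS, 126 bp away with a peak in the 5000-cell list for Ndrg1 and 605 bp away for Sgms1. Tmem41a and Map1lc3a (an autophagosome protein of the LC3 family) fell.

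**Figure D4:**
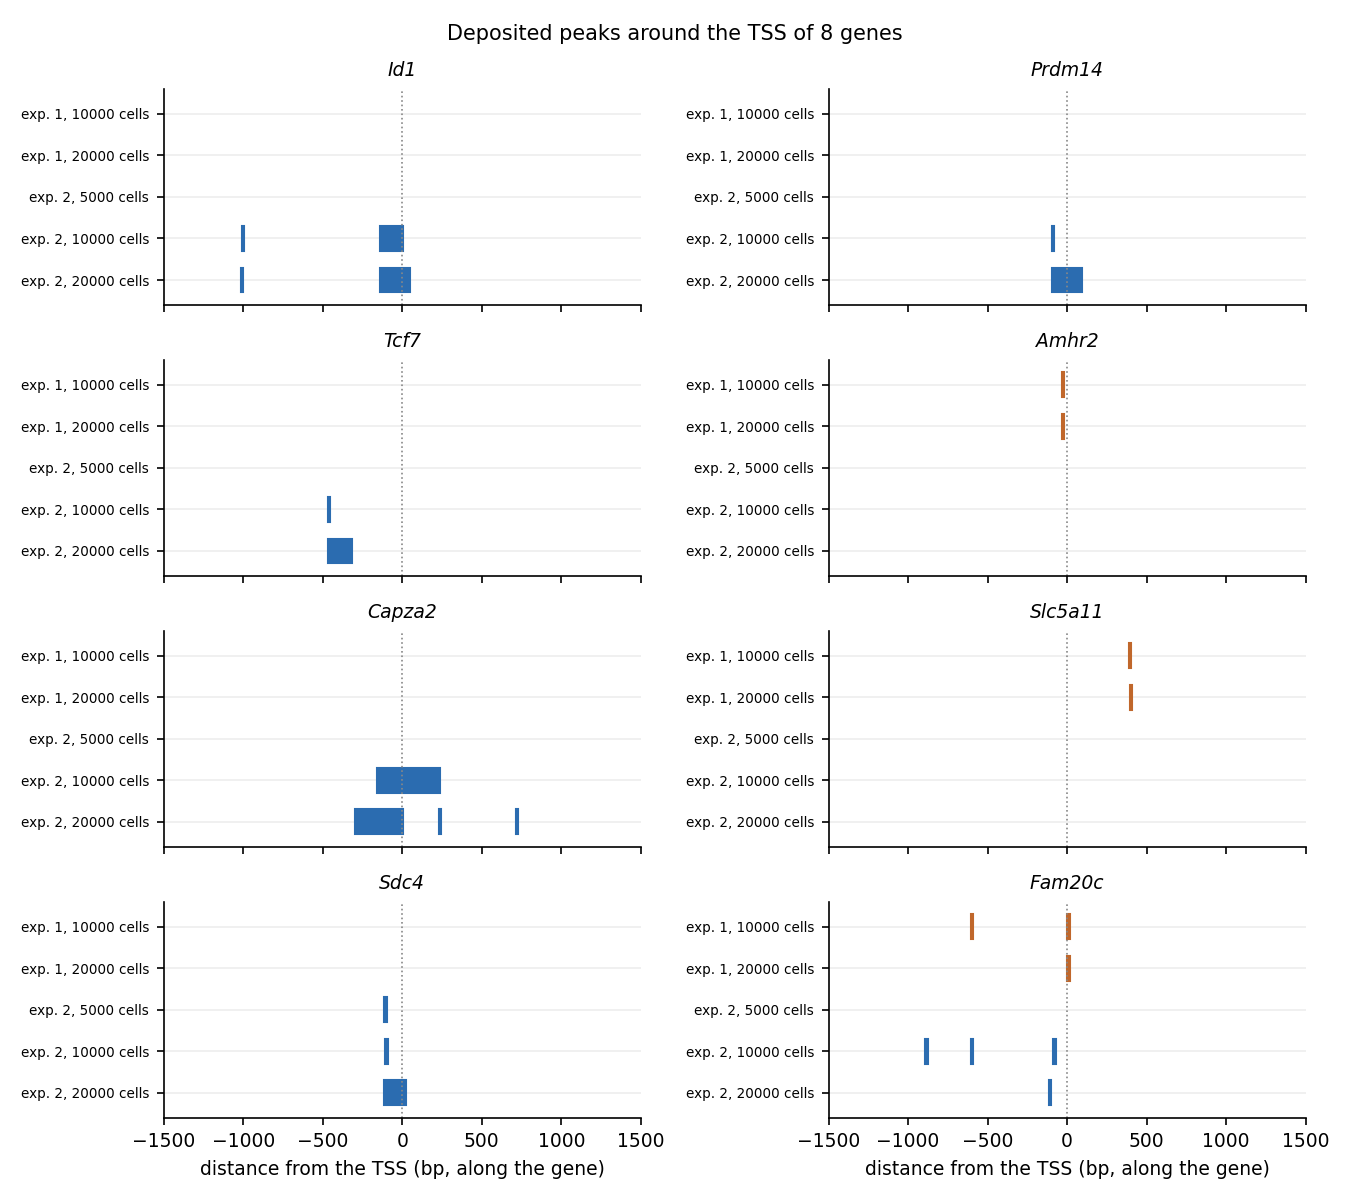
Each bar is a deposited peak, placed by distance from the TSS along the gene in bp (dotted line at 0), for 3 lists of experiment 2 (blue) and 2 lists of experiment 1 (orange); bars under 14 bp are drawn 14 bp wide so that they can be seen. Id1, Tcf7, Capza2, Sdc4 and Prdm14 have peaks in experiment 2 only, Amhr2 and Slc5a11 in experiment 1 only, and Fam20c in both, with 1 shared position before the TSS.

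Genes of 19 lists of stem cell, signalling, lineage and metabolic genes were then followed. Of their 199 genes outside chromosomes 8 and Y, 14 (7.04%) had an experiment 2-only region at the TSS, against 5.79% of all genes, and 0 had an experiment 1-only region there. As the nearest TSS within 50 kb, 48 (24.1%) had an experiment 2-only region, against 13.5% of all genes, and 2 (Pim3 and Etv5) an experiment 1-only region. Neither share was tested, and the lists were chosen with earlier results of these data known.

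In the pluripotency list the regions lay at Tbx3 and Prdm14 and, within 50 kb, near Klf4 and Klf5. Prdm14, a repressor that guards the naive state, had a 9 bp peak from 10000 cells and a 190 bp peak from 20000 cells of experiment 2 and none in experiment 1. Prdm14 mRNA was 11.7 and 6.29 CPM in experiment 1 and 8.83 and 10.6 CPM in experiment 2, with overlapping values (log2 fold change 0.12 ± 0.29 SE, adjusted p = 0.848). Tbx3, a T-box factor, had wide TSS peaks in all 4 lists besides a 9 bp experiment 2-only region. Klf4 had a region 1977 bp from the TSS with peaks of 9 and 109 bp, and its mRNA rose from 65.1 and 67.2 CPM to 83.7 and 93.4 CPM (log2 fold change 0.42 ± 0.13 SE, adjusted p = 0.0381). Klf4 lost its call without any 1 of 4 libraries. Of the 13 listed pluripotency genes tested, 2 rose (Klf4 and Dppa3), against 4.27% of all genes.

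Id1, an inhibitor of helix-loop-helix factors and a target of BMP signalling, had wide promoter peaks in experiment 2 alone. Its TSS peaks were 147 bp from 10000 cells and 194 bp from 20000 cells of experiment 2 (chr2:152736109-152736302), with no peak within 1000 bp of the TSS in experiment 1 or in the 5000-cell list, and 4 experiment 2-only regions had Id1 as the nearest TSS within 50 kb. Id1 mRNA was 137 and 154 CPM in experiment 1 and 174 and 154 CPM in experiment 2, with 144 CPM in the 5000-cell library. The change did not pass the test (log2 fold change 0.18 ± 0.13 SE, adjusted p = 0.416), so a gene at 137 CPM or more in all 5 mRNA libraries had no promoter peak in 3 of the 5 matching ATAC lists.

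Id2 differed from Id1. Its mRNA rose from 21.1 and 19.7 CPM to 97.0 and 95.02 CPM, with 89.7 CPM in the 5000-cell library (log2 fold change 2.236 ± 0.15 SE, adjusted p = 2.02e-10). The TSS of Id2 had peaks of 181 bp in 1 experiment 1 list and of 161 and 415 bp in experiment 2, so it was outside the rule, while a region 2723 bp away, with peaks of 200 and 19 bp, was experiment 2-only. Of the 10 BMP and Id genes tested, 1 rose (Id2) and 1 fell (Smad9), where 4.27% of all genes rose and 7.09% fell.

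Signalling genes had regions mainly at a distance. In the FGF and ERK list, 6 of 8 genes had an experiment 2-only region as nearest TSS within 50 kb: the receptor Fgfr2, the feedback inhibitors Spry2, Spry4 and Dusp6, and the ERK-induced factors Etv4 and Etv5. Of all genes 13.5% had one, and of the listed genes 24.1%. None of the 7 tested FGF and ERK genes was called by edgeR or DESeq2, 3 had an unadjusted edgeR p under 0.05 (Spry2, Dusp6 and Etv4), and distances ran from 1132 bp (Spry2) to 29593 bp (Etv4). Dusp6 stood at 24.8 and 22.3 CPM against 15.3 and 17.8 CPM (adjusted p = 0.0891). In the LIF list the receptors Lifr and Il6st had a region at 5053 and 23713 bp, the latter with peaks of 178 and 366 bp and one in the 5000-cell list. Pim3, a LIF-induced kinase, had an experiment 1-only region of 9 bp 3737 bp from the TSS and fell from 70.7 and 80.6 CPM to 54.2 and 51.5 CPM (adjusted p = 0.0161). Of the 8 LIF and STAT3 genes tested, 2 rose (Socs3 and Gbx2, neither the nearest TSS of an experiment-only region within 50 kb) and Pim3 alone fell, against 4.27% and 7.09% of all genes. DESeq2 called 0 of them higher and 1 lower.

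Nodal, a TGF-beta family ligand, had promoter peaks of 14 and 16 bp in experiment 2 and none in experiment 1, yet its mRNA fell from 60.6 and 57.7 CPM to 28.8 and 45.5 CPM, with 28.6 CPM in the 5000-cell library (log2 fold change -0.67 ± 0.17 SE, adjusted p = 0.0116). The call was lost without the 10000-cell library of experiment 2. No other of the 9 Nodal pathway genes tested was called, where 7.09% of all genes were lower and 4.27% higher. In the Wnt list, Tcf7 had TSS peaks of 9 and 148 bp in experiment 2 alone, and Axin2 and Tcf7l1 a region within 50 kb. Of 5 tested Wnt genes 0 were called by edgeR or DESeq2, where edgeR called 4.27% of all genes higher and 7.09% lower. Tcf7 alone of the 5 had an unadjusted edgeR p under 0.05.

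Some lineage genes with an experiment 2-only region at the TSS or within 50 kb had low mRNA levels. Zic5, a zinc-finger factor, had a region of 103 bp at the TSS, with 0 and 0.201 CPM in experiment 1 and 1.29 and 0.979 CPM in experiment 2 (adjusted p = 0.0776). In the mesendoderm list, 4 of 9 genes were the nearest TSS of such a region within 50 kb (Eomes, Mixl1, Gsc and Mesp1), as were 13.5% of all genes, and 2 of the 9 passed the count filter. Eomes stood at 0.364 and 0.870 CPM against 2.64 and 2.105 CPM, and its region had a peak in the 5000-cell list (adjusted p = 0.0928).

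Of the 10 p53 targets tested, 8 fell by edgeR (7.09% of all genes did) and 6 by DESeq2, and 4 of the 8 (Bbc3, Zmat3, Trp53inp1 and Sesn2) had an experiment 2-only region as nearest TSS within 50 kb, as had 13.5% of all genes. Sesn2, a stress-induced inhibitor of mTORC1, had it at the TSS with peaks of 127 and 92 bp, and stood at 41.3 and 21.9 CPM in experiment 1 and 13.9 and 22.1 CPM in experiment 2, with overlapping values. Bbc3, the apoptosis gene of the PUMA protein, fell from 40.1 and 44.2 CPM to 12.4 and 13.1 CPM (log2 fold change -1.72 ± 0.18 SE, adjusted p = 3.61e-07). Of 15 tested germline genes 8 fell (7.09% of all genes did), and of the list Brdt alone was the nearest TSS of an experiment 2-only region within 50 kb.

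In the glycolysis list, Pfkl had a TSS region with peaks of 44 and 179 bp, and Slc2a1, Ldha and Eno1 one within 50 kb. Both experiment 1 lists also had a 9 bp peak within 1000 bp of the Pfkl TSS. Of the 11 glycolysis genes tested, 2 rose (Bnip3 and Tpi1), against 4.27% of all genes. Fos and Ier3, immediate early genes, had TSS regions with 9 bp peaks from 10000 cells and 19 and 67 bp peaks from 20000 cells. At Ier3 the 20000-cell list of experiment 1 also had a 9 bp peak within 1000 bp of the TSS. None of the 7 tested immediate early genes was called by edgeR or DESeq2, and 0 had an unadjusted edgeR p under 0.05. By edgeR 4.27% of all genes were higher and 7.09% lower.

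The genes with the largest mRNA changes outside chromosomes 8 and Y, at a mean of at least 10 CPM, were set beside the regions. Of the 10 largest falls (Fkbp6, Calml4, Tsx, Ceacam20, Slc4a5, Timm8a2, Plac8, Slc11a1, Fmr1nb and Mael), 9 had no peak of the 4 lists within 1000 bp of the TSS, and 1 (Fkbp6, a germline immunophilin) had an experiment 2-only region within 50 kb. No such TSS peak was found for 11140 of all 23223 genes, or for 2172 of the 11825 tested. Fkbp6 fell from 51.2 and 57.8 CPM to 3.48 and 1.71 CPM, with that region 3623 bp away. Of the 10 largest rises (among them Meg3, Trh, Id2, Cpsf4l, Ldhb, Klhl13, Top2b, Fbxo15 and Napsa), 5 had a TSS peak in all 4 lists and 3 had no TSS peak. Of all genes 25.5% had a region of all 4 lists at the TSS. Among the same rises 6 had an experiment 2-only region within 50 kb. At that distance, whether or not theirs was the nearest TSS, 40.8% of the tested genes and 30.7% of all genes had one. Trh, the thyrotropin-releasing hormone gene, rose from 8.45 and 6.29 CPM to 46.1 and 56.8 CPM, with a region 3098 bp away of 160 and 25 bp peaks. None of these 20 genes had an experiment-only region at the TSS, where 5.79% of all genes had an experiment 2-only and 0.276% an experiment 1-only one.

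Of 34 called genes described above, 14 kept an adjusted p under 0.05 whichever 1 of the 4 libraries was left out: Dennd3, H2-K1, Hopx, Gdf3, Megf11, Sdc4, Psmb9, Ttc39c, Sct, Gpr4, Id2, Bbc3, Fkbp6 and Trh. All 34 kept their sign. Without the 10000-cell library of experiment 2 the calls lost were Amhr2, Fsip1, Nedd1, Hps6, Msc, Fam20c, Ndrg1, Sgms1, Rab28, Tmem41a, Map1lc3a, Klf4, Pim3, Nodal and Sesn2. Without its 20000-cell library Slc2a3, Dpp4, Slc5a11, Bhlhe40 and Stmn1 were lost, with 10 of those just listed. Every experiment 1-only promoter gene named above lost its call without at least 1 library, and DESeq2 left Amhr2, Slc5a11 and Ndrg1 called among those named.

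By chromosome, the experiment 2-only regions per 100 regions of all 4 lists had a median of 40.1 over the 19 chromosomes of the rule and ran from 30.9 on chromosome 15 to 67.3 on chromosome 14. Chromosome X stood at 58.0. Chromosome 14 held 206 experiment 2-only and 7 experiment 1-only regions, and chromosome 15 held 228 and 24, the latter 10.3% of all experiment 1-only regions. The median mRNA log2 fold change was 0.14 on chromosome 14, 0.08 on X and -0.29 on chromosome 15. Over the 19 chromosomes the ratio and this median correlated with r = 0.71 (Spearman 0.66), and with r = 0.61 (0.52) without chromosomes 14 and 15 and r = 0.49 (0.43) without X as well. The points share the same libraries and are given as a description. Chromosome 8, outside the rule, stood at 75.9 with a median of 0.46, and 210 of its 692 tested genes were higher. Chromosome Y, also outside the rule, held 5 experiment 2-only regions and 5 of all 4 lists. Of its 6 tested genes 5 were higher, and these had 0 counts in both experiment 1 libraries against 375, 502 and 308 in those of 10000, 20000 and 5000 cells of experiment 2. These differences by chromosome moved with the experiment, and their part in the results was not tested.

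**Figure D5:**
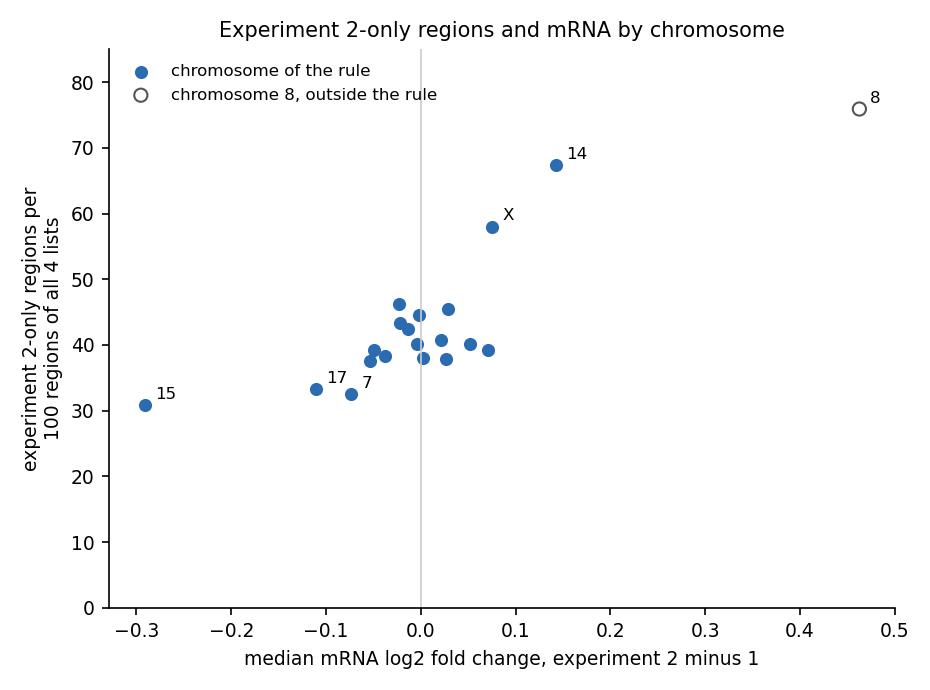
Each point is a chromosome, with the median mRNA log2 fold change of its tested genes (experiment 2 minus experiment 1) on the horizontal axis and the experiment 2-only regions per 100 regions of all 4 lists on the vertical axis. Chromosomes 14 (67.3) and X (58.0) lie highest among those of the rule and chromosome 15 (30.9) lowest, and the open circle is chromosome 8.

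Along the chromosomes the regions were spread thinly. The windows of 1 Mb with the most experiment 2-only regions were chr11:69000001-70000000 and chr11:97000001-98000000, with 13 each, and 2 windows on chromosomes 10 and 4 with 12 each. The first holds Aurkb, Kdm6b, Polr2a and Eif5a, and 2 of its 45 tested genes were higher and 5 lower, on a chromosome with 41 of 1047 tested genes higher and 70 lower. For experiment 1-only regions 5 windows held 3 each, among them chr15:102000001-103000000 with Amhr2 and Sp7, where 10 of 25 tested genes were lower, on a chromosome with 99 of 506 tested genes lower.

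In G and C content, experiment 2-only promoters were close to those open in all 4 lists. Of 31177 RefSeq promoter windows (250 bases before to 50 after a start) outside chromosomes 8 and Y, 718 overlapped an experiment 2-only region and neither an experiment 1-only region nor one of all 4 lists, 12 an experiment 1-only region, and 5440 a region of all 4 lists. The median G and C content was 61.7% in experiment 2-only windows, 62.7% in windows of all 4 lists and 48.7% in windows without a peak, and the median number of CpG pairs was 21, 23 and 4. The 12 experiment 1-only windows had 68.7% and 29.

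The windows were searched on both strands for 13 motifs, and no motif holds another. NFY letters (CCAAT) were in 30.2% of experiment 2-only windows, in 50.7% of windows of all 4 lists and in 37.5% of all windows. SP letters (GGGGCGGG) were in 30.9%, 36.7% and 16.6% of the same sets. ETS letters (CCGGAAG) were in 19.8%, 21.3% and 8.86%. CTCF letters (AGNNGGCGC) were in 14.1%, 13.8% and 7.26%, close to equal in both open classes. AP-1 letters (TGANTCA) were in 4.04%, 3.29% and 7.91%, and KLF letters (GGGTGTGG) in 2.37%, 4.43% and 3.54%. SOX letters, ACAAAG, were in 11.98% of experiment 2-only windows against 11.1% of windows of all 4 lists and 18.8% of all. TEAD letters, GGAATG, were in 13.4%, 10.2% and 14.6%. GATA letters, AGATAA, were in 5.15%, 4.21% and 11.3%. E-box letters, CACGTG, were in 9.47%, 10.6% and 7.19%. The CRE (TGACGTCA), the octamer (ATGCAAAT) and the ESRRB letters (TCAAGGTCA) were each in under 4% of experiment 2-only windows. A match is a run of letters, not a bound site, and the shares were not tested.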

How the data were processed

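ATAC data were deposited as intervals, 1 list per library, with no height, score or p-value. The submitters' processing notes name cutadapt, Bowtie2 2.1.0, SAMtools 1.3.1, Picard, bedtools 2.24.0, MACS2 2.1.1, STAR 2.5, featureCounts and Subread 1.5.0-p1 with mm10, without role or order. Peak thresholds, strand use and multimapping are not given in the sources used here, so copies, overlapping and antisense genes are uncertain. The authors deposited raw counts per gene for 5 mRNA libraries, with coordinates in the table. CPM were computed here from library totals. A count of 0 allows up to 3 counts, 0.147 to 0.219 CPM by library.

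Peaks overlapping by at least 1 bp were merged. Shares of regions have 95% exact binomial intervals and no test, since peaks are not replicates. Experiment 2 (10000 and 20000 cells) was tested against experiment 1 with edgeR 4.0.16 (filterByExpr, TMM, quasi-likelihood, R 4.3.3, Benjamini-Hochberg over 12523 genes, threshold 0.05), 2 libraries a group, the 5000-cell library outside the fit. The steps were tested on simulated data. Promoters came from RefSeq GRCm38.p6: 17400 of 23223 genes matched by gene ID, and 86.2% had an equal start. Python 3.11.15 was used.

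Named genes are, per class, up to 10 with a region within 1000 bp of the TSS, a called mRNA and a mean of at least 5 CPM, by size of change. To these come the nearest genes of the 10 widest regions, the 3 windows with the most regions (with ties), listed genes near a region, and the 10 largest mRNA rises and falls at a mean of at least 10 CPM, all outside chromosomes 8 and Y. Others were named after their values were seen. The regions, lists and rules were chosen with earlier results of these data known. Alternatives were other gap, overlap, width and TSS limits, equal lists, RLE, DESeq2 1.42.0, no count filter, a fold limit, a cell-number block and leaving out each library. Some genes are not reported here.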

Additional observations from a re-analysis of the deposited data

How the results depend on the processing

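The excess of experiment 2-only over experiment 1-only regions held under each alternative that kept all 4 lists, and its size did not. With peaks of at least 50 bp there were 3017 against 50 regions, found in the 5000-cell list in 54.5% and 32.0%. This limit also dropped narrow peaks of the other experiment, so it counts regions that the main rule does not. Under the main rule 699 experiment 2-only and 7 experiment 1-only regions had both peaks of at least 50 bp. With equal lists there were 1339 against 842, found in 39.5% and 31.0%. With no peak of the other experiment within 500 bp, experiment 1-only regions numbered 126. Leaving out 1 list made the rule easier to meet: experiment 2-only regions ran from 5887 to 24085 (7.34% to 32.4% in the 5000-cell list) and experiment 1-only regions from 312 to 4308 (3.16% to 25.3%), the nearest being 5887 against 4308 without the 10000-cell list of experiment 1. Without 1 experiment 2 list the shares in the 5000-cell list changed order (7.34% against 12.2%, and 11.5% against 25.3%). Those rules take in regions that the main rule leaves outside both classes.

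For mRNA over all chromosomes, 720 genes were higher and 847 lower. DESeq2 gave 557 lower, and requiring an absolute log2 fold change of 1 or more left 234 higher and 378 lower. Leaving out 1 library gave 352 to 944 higher and 410 to 873 lower; the counts fell by over 1.5 times without the 10000-cell library of experiment 1 (472 and 546) and without the 10000-cell (393 and 410) or 20000-cell (352 and 517) library of experiment 2. Among genes with an experiment 2-only TSS region, DESeq2 called 40 lower, the fold limit 18 higher and 22 lower, and the stricter absence of experiment 1 peaks, added after seeing the data, 36 and 41. Leaving out 1 library gave 24 to 81 higher and 29 to 70 lower. Among genes with an experiment 1-only TSS region, 0 were higher and 3 lower with the 500 bp gap and with the stricter absence, 0 and 1 with peaks of at least 50 bp, 1 and 2 with DESeq2, 2 and 2 with the fold limit, and 2 to 3 and 0 to 5 without 1 library. Among genes nearest a distal region, alternatives added after seeing the data gave 43 to 114 higher and 47 to 96 lower for experiment 2-only regions, and 1 to 3 and 7 to 12 for experiment 1-only regions, without 1 library. The gap, width and absence limits leave fewer regions or genes; for the other changes the cause was not tested. Cell number as a replicate block gave 824 higher and 941 lower; deviations by cell number did not go together across 12523 genes (r = -0.003), so libraries share only a number. Depth of the ATAC libraries is unknown and limits every absence of a peak.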
